A study of Mus musculus with 12 samples.

Results

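The citric acid cycle enzymes described here are 9 genes: Pdha1, Dlat, Cs, Idh3a, Idh2, Ogdh, Suclg1, Fh1 and Mdh2. They were taken by name, as every probe that the platform annotation assigns to one of these symbols. All 9 were measured, of 12913 named genes, by 10 of the 17589 probes, since Idh2 had 2 probes. Terminal end buds are the club-shaped growing ends of mammary ducts in puberty, and 6 arrays set their RNA against that of distal stroma, which is fat pad tissue still free of epithelium. Another 6 arrays set mature ducts against distal stroma. Glands came from mice 5 weeks old, all carriers of a beta-actin GFP reporter by which the tissue was seen for microdissection. The labels do not give the strain, whether tissue of several mice was pooled, or whether the stroma was 1 pool.

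Each value is a log ratio of epithelium (Cy5) over stroma (Cy3) on 1 array, taken as log2. No source used here states the base or the direction of the ratio. Epithelium over stroma was taken from the order of the channels in the labels, and with it all 9 epithelial markers measured lay above 0. Folds below hold for base 2, while ranks and p-values do not depend on it. A value of -1 is thus a 2-fold lower signal than in stroma. The same dye orientation on every array leaves any dye bias of a probe in its ratio. Tests used limma over all probes with Benjamini-Hochberg adjustment, and a gene is called where its adjusted p is below 0.05. Stroma is treated as 1 control sample, and the tests leave out its spread. The labels do not tie the arrays to different mice, so the p-values cover only the spread between arrays, which may be technical.

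In the citric acid cycle, acetyl groups are oxidised in the mitochondrial matrix and the electrons are passed to the respiratory chain. Pyruvate from glycolysis enters through the pyruvate dehydrogenase complex, and fatty acids enter as acetyl-CoA made by beta-oxidation. The cycle also supplies citrate for fatty acid synthesis. Brown fat cells, heart and muscle are rich in these enzymes, and fat pads of young mice can hold brown fat cells.

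None of 5 motifs searched stood near the start of every member with a window. RefSeq promoter windows of build GRCm38.p6, each 300 bases around a start, were found for 8 of the 9 genes, in 13 windows because Ogdh has 6. The windows below belong to the gene with the lowest terminal end bud ratio (Suclg1), the gene with the largest difference between the structures (Pdha1), the gene closest to stroma (Idh2) and the one member with a match to the core element of oestrogen-related receptors (Ogdh). They are written 5′ to 3′ along the gene, with motif matches in capitals.
Suclg1, chr6:73248255-73248554, plus strand: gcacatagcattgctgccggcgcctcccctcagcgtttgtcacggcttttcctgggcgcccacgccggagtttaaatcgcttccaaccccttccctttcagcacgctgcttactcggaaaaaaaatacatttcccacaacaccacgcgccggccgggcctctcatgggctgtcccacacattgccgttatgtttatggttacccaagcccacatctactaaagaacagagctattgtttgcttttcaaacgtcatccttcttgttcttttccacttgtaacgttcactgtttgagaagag
Pdha1, chrX:160138381-160138680, minus strand: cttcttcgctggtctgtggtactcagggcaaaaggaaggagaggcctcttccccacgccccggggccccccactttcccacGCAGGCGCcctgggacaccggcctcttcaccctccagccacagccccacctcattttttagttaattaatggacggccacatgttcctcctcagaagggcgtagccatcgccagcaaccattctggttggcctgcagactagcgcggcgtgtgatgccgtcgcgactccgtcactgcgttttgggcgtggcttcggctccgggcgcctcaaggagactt
Idh2, chr7:80115301-80115600, minus strand: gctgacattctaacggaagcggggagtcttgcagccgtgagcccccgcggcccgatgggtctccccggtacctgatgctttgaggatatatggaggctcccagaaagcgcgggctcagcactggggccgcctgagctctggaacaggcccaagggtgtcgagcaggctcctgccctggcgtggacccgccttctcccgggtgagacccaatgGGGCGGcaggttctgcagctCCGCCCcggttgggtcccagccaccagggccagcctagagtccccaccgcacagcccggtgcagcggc
Ogdh, chr11:6291920-6292219, plus strand: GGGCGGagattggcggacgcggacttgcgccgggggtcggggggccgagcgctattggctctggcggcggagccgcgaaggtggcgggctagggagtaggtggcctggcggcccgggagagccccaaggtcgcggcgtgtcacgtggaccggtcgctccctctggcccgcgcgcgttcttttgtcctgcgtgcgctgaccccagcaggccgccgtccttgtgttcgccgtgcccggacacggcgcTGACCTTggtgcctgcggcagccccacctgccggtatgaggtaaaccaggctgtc

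In these windows the capitals mark GGGCGG (Sp1) at the first base of the Ogdh window and in both orientations in Idh2, GCANGCGC (NRF1) in Pdha1, and the reverse complement of AAGGTCA (oestrogen-related receptors) in Ogdh. Of 27025 genes with such windows, 38.2% held GGGCGG in any of them, 10.82% GCANGCGC and 5.38% AAGGTCA, on either strand. Among the 8 members with windows, 6 held GGGCGG, 2 held GCANGCGC and 1 held AAGGTCA. None of their windows held CCGGAAGT (ETS factors, in 4.31% of genes) or TATAAA (in 15.67%). No matches overlapped in the windows shown, and Suclg1 had none of the 5 motifs. A match describes letters and is not evidence of binding.

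Cycle enzymes were lower in terminal end buds than in distal stroma. Of the 9 genes, 8 fell and none rose, where 20.4% of all probes fell and 23.2% rose. The same 8 of 9 fell in ducts and none rose, where 12.2% of all probes fell and 16% rose. The exception in both was Idh2 by the probe used for it, while its other probe fell in ducts. The members had a median log2 ratio of -1.94 in terminal end buds and -0.94 in ducts, against 0.01 over all 12913 genes in each. The comparisons share stroma as their reference, so they are not independent. In bulk tissue, fewer cells of a type and less RNA per cell cannot be told apart.

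**Figure D1:**
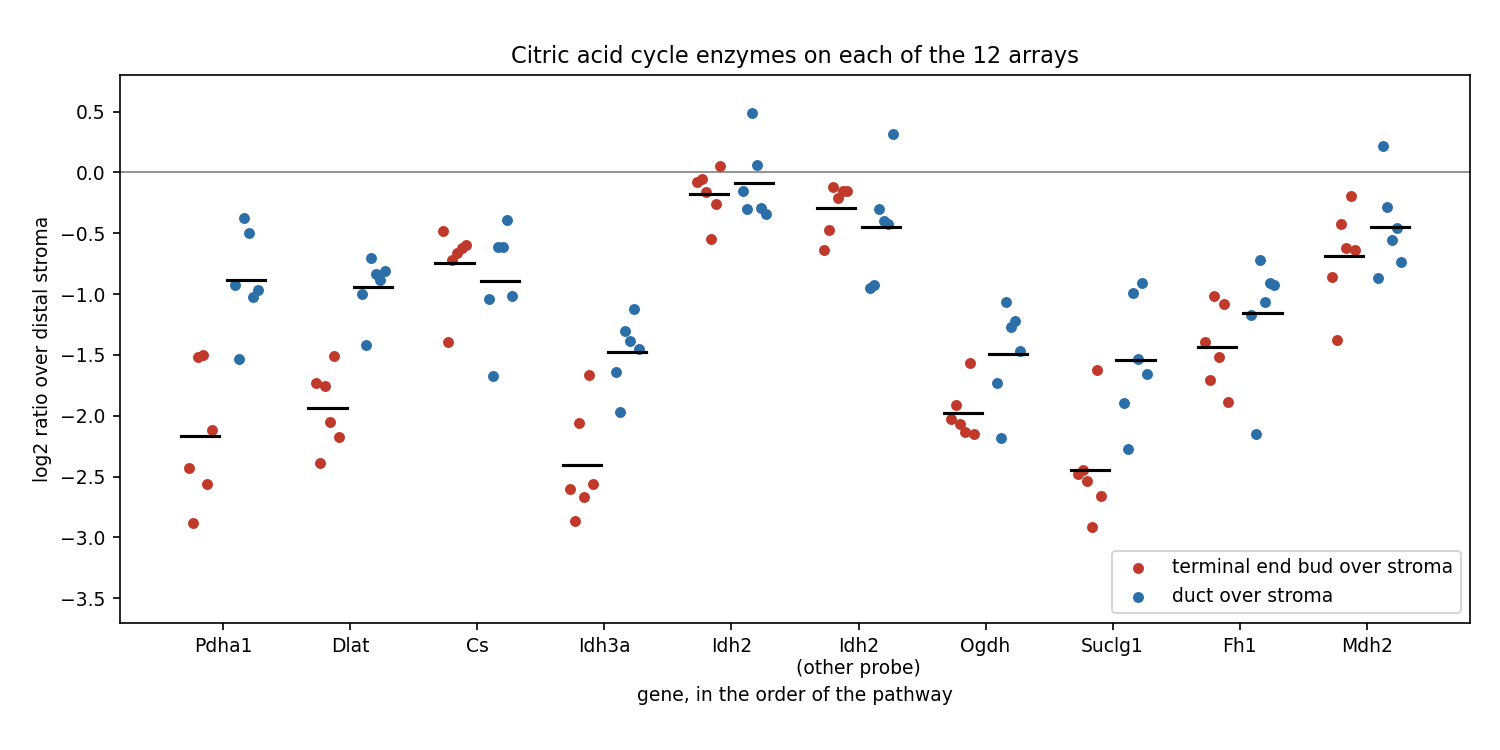
Log2 ratio over distal stroma of each cycle enzyme on 6 terminal end bud arrays (red) and 6 duct arrays (blue), with black lines at the group means. Suclg1 and Idh3a had the lowest means in terminal end buds, at -2.44 and -2.40, and the groups of Dlat did not overlap. The probe used for Idh2 averaged -0.18 in terminal end buds and -0.09 in ducts, and its other probe -0.29 and -0.45.

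Pyruvate enters the cycle through Pdha1 and Dlat. Pdha1, the alpha subunit of the pyruvate dehydrogenase component, had ratios with a lowest, median and highest value of -2.88, -2.27 and -1.50 in terminal end buds, against -1.53, -0.95 and -0.38 in ducts. The groups overlapped slightly, with duct replicate 2 inside the range of the terminal end buds. Replicate numbers here count the arrays of each group in the order of the samples and are not given by the labels. The means were -2.17 (SE 0.18), a 4.49-fold lower signal than in stroma, and -0.89 (SE 0.18). Dlat, the acetyltransferase core of the complex, had -2.39, -1.91 and -1.51 in terminal end buds, against -1.42, -0.86 and -0.70 in ducts. Every terminal end bud array lay below every duct array for Dlat, a separation in this direction that 5.79% of all probes had and no other member had. Its means were -1.94 and -0.94 (SE 0.11 each).

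Citrate synthase, Cs, joins acetyl-CoA to oxaloacetate. It had ratios of -1.39, -0.64 and -0.48 in terminal end buds, against -1.67, -0.81 and -0.39 in ducts. The groups overlapped over nearly their whole ranges. Cs fell against stroma in terminal end buds by 0.74 (SE 0.14, limma adjusted p = 0.000622) and in ducts by 0.89 (SE 0.14, limma adjusted p = 0.000335). By the probe used for each gene, Cs was the one member whose mean was not lower in terminal end buds than in ducts. The other probe of Idh2 also had a higher mean in terminal end buds, at -0.29 against -0.45 in ducts.

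Isocitrate is oxidised by 2 different mitochondrial enzymes, and the ratios of their genes lay apart. Idh3a is the catalytic subunit of the NAD-dependent enzyme of the cycle, and its ratios were -2.86, -2.58 and -1.66 in terminal end buds, against -1.97, -1.42 and -1.13 in ducts. Its means of -2.40 and -1.48 (SE 0.14 each) were a 5.29-fold and a 2.79-fold lower signal than in stroma. The NADP-dependent Idh2, which supplies NADPH for reduction in the matrix, had -0.54, -0.12 and 0.05 in terminal end buds, against -0.34, -0.23 and 0.49 in ducts. Arrays of both groups lay on either side of 0. The Idh2 means of -0.18 (SE 0.10, limma adjusted p = 0.186) and -0.09 (SE 0.10, limma adjusted p = 0.556) did not pass. Its other probe averaged -0.29 (SE 0.13, limma adjusted p = 0.0903) and -0.45 (SE 0.13, limma adjusted p = 0.0199). With the mean of both probes Idh2 passed in each structure, at -0.23 (limma adjusted p = 0.0403) and -0.27 (limma adjusted p = 0.031).

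Within each array, Idh3a was lower than Idh2 relative to stroma. The difference of their ratios averaged -2.23 ± 0.52 in terminal end buds and -1.39 ± 0.36 in ducts (SD, n = 6 each), and it was below 0 on 6 of 6 arrays of each. With the other Idh2 probe it averaged -2.11 ± 0.37 and -1.03 ± 0.39 (SD, n = 6 each), again below 0 on every array. Each of these 4 comparisons had a two-sided exact sign-flip permutation p of 0.0312, also after Benjamini-Hochberg adjustment, which is the smallest that 6 arrays allow. This pair was set side by side after its values had been seen, and the 4 comparisons share the Idh3a values. The adjustment does not cover that choice, so these p-values are no support for a difference.

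Ogdh and Suclg1 carry the next steps. Ogdh, the first component of the 2-oxoglutarate dehydrogenase complex, had ratios of -2.15, -2.05 and -1.57 in terminal end buds, against -2.18, -1.37 and -1.07 in ducts. The lowest value of all was on duct replicate 2, and the next duct array was at -1.74. Suclg1, the alpha subunit of succinyl-CoA ligase, had -2.92, -2.51 and -1.62 in terminal end buds, against -2.27, -1.60 and -0.91 in ducts. Its terminal end bud mean of -2.44 (SE 0.17) was a 5.44-fold lower signal than in stroma, and only 0.131% of all probes had a lower mean ratio there. In ducts Suclg1 averaged -1.54 (SE 0.17) and Ogdh -1.49 (SE 0.12).

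Fh1 and Mdh2 carry the last steps, and both had means closer to stroma than those of Idh3a, Ogdh and Suclg1. Fh1, fumarase, had ratios of -1.89, -1.45 and -1.01 in terminal end buds, against -2.15, -0.99 and -0.72 in ducts. Its means were -1.43 and -1.16 (SE 0.16 each), and duct replicate 2 was the lowest of the 12 arrays. Mdh2, mitochondrial malate dehydrogenase, had -1.38, -0.63 and -0.20 in terminal end buds, against -0.87, -0.51 and 0.21 in ducts. Its groups overlapped. Mdh2 averaged -0.69 (SE 0.14, limma adjusted p = 0.00114) in terminal end buds and -0.45 (SE 0.14, limma adjusted p = 0.0295) in ducts. The duct call of Mdh2 was lost without duct replicate 1 (-0.37, limma adjusted p = 0.0999) and also without duct replicate 4, 5 or 6 (limma adjusted p = 0.0654 to 0.0916).

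The ratios of the probes thus varied from member to member along the pathway. On every terminal end bud array Idh3a and Suclg1 were among the 3 lowest members, and Cs, Idh2 and Mdh2 were the 3 highest. Ogdh was among the 3 lowest on every duct array. Suclg1 was the lowest member on 4 duct arrays, and Idh2 the highest on 5 arrays of each structure. These orders compare ratios to stroma, not levels of the transcripts. Every member but Idh2 rests on a single probe, and probes of some other cycle genes disagreed widely, as given below. Differences between genes and between probes therefore cannot be told apart in these orders. Most members also varied together from array to array. After subtraction of group means, the correlation of 2 members over the 12 arrays had a median of 0.41 over 36 pairs. With the mean of the other members it was lowest for Mdh2 (0.07), Idh2 (0.26) and Pdha1 (0.38) and at least 0.71 for the other 6. For single pairs it reached 0.92 for Ogdh and Suclg1, and -0.15 for Ogdh and Mdh2. Arrays share their stroma channel and scaling, so these correlations are a description.

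Terminal end buds had lower ratios than ducts for 4 of the 9 genes. Pdha1 differed by -1.28 (SE 0.25, limma adjusted p = 0.0024), Dlat by -0.99 (SE 0.15, limma adjusted p = 0.000485), Idh3a by -0.92 (SE 0.19, limma adjusted p = 0.004) and Suclg1 by -0.90 (SE 0.24, limma adjusted p = 0.0179). Of all probes 10.4% were lower in terminal end buds than in ducts and 8.32% higher, and no member was higher. The difference was -0.49 (SE 0.17, limma adjusted p = 0.0638) for Ogdh, which did not pass. Fh1 at -0.28 (SE 0.22), Mdh2 at -0.24 (SE 0.20), Idh2 at -0.08 (SE 0.14) and Cs at 0.14 (SE 0.20) had limma adjusted p between 0.458 and 0.757. Over the 9 genes the median difference was -0.49, against 0.00 over all 12913 genes.

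None of these 4 differences passed when the arrays were quantile normalized. The SD over probes was 0.54 to 0.64 on the terminal end bud arrays, against 0.38 to 0.48 on the duct arrays, and quantile normalization gives every array the same distribution of ratios. Under it 0 of 9 members passed in limma, with differences near 0 for Idh3a (-0.03) and Suclg1 (-0.01), while Pdha1 stood at -0.66 (limma adjusted p = 0.187) and Dlat at -0.32 (limma adjusted p = 0.179). Ogdh (0.37), Fh1 (0.33) and Mdh2 (0.05) changed sign. With arrays scaled to a common median absolute deviation, Pdha1 (-1.02, limma adjusted p = 0.0396) and Dlat (-0.71, limma adjusted p = 0.0165) passed and the other 7 did not. Of all probes, 7.16% were lower in terminal end buds after quantile normalization and 8.55% at the common deviation. Against stroma, 8 of 9 members fell in each structure under both scalings.

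**Figure D2:**
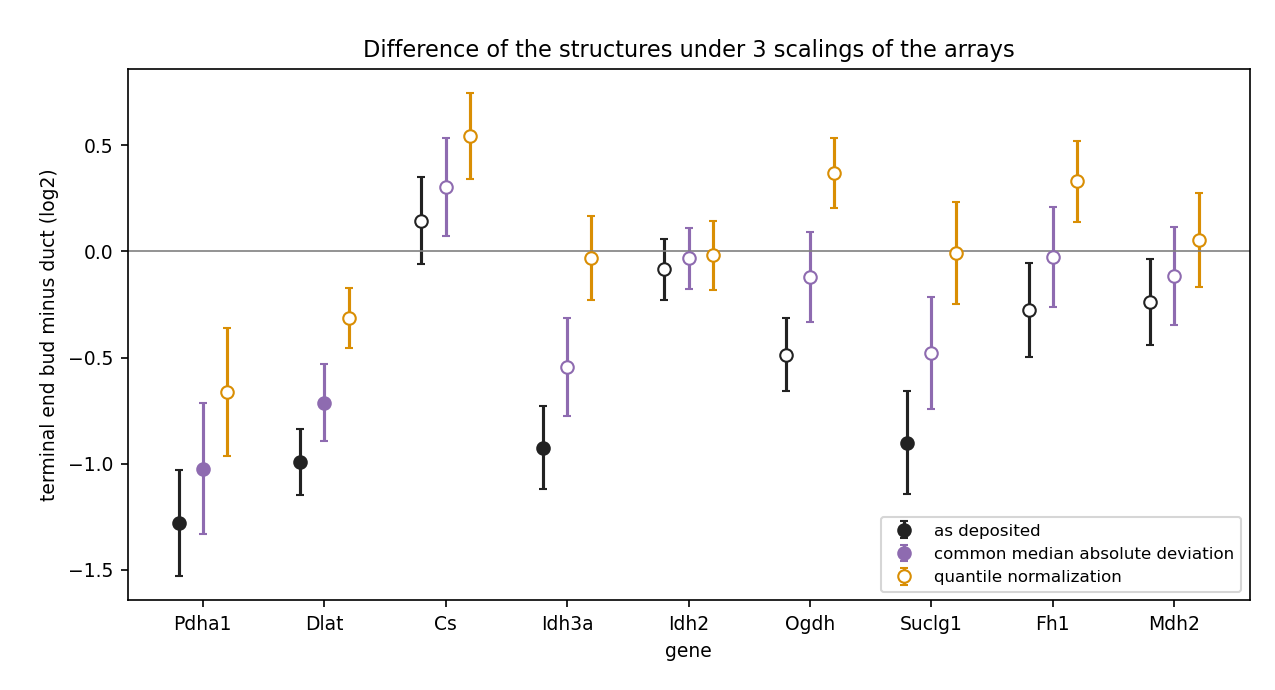
Difference of terminal end bud and duct log2 ratios of each cycle enzyme, with the standard error from limma, for the ratios as deposited (black), scaled to a common median absolute deviation (purple) and quantile normalized (orange). Filled points have an adjusted p below 0.05, and there were 4, 2 and 0 of them.

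The sample titles end in numbers from 190 to 203, which were read here as slide numbers. Each group had 2 arrays up to 193 and 4 arrays from 196. Early, late and neighbouring refer to the order of these numbers, not to known dates or batches. The mean of the 9 members was -1.73 on the early and -1.46 on the late terminal end bud arrays, against -1.32 and -0.83 on the duct arrays. Within the late slides 5 members were lower in terminal end buds than in ducts, Ogdh with them (-0.72, limma adjusted p = 0.012). Within the early slides Pdha1 (-1.43, limma adjusted p = 0.0308) and Idh3a (-0.93, limma adjusted p = 0.0351) were, while Dlat stood at -0.85 (limma adjusted p = 0.113) and Suclg1 at -0.38 (limma adjusted p = 0.258). With early against late slides as a term in the fit of all 12 arrays, 5 members were lower, Ogdh again with them (-0.49, limma adjusted p = 0.0368). Ogdh also passed with array weights (-0.49, limma adjusted p = 0.0458), without terminal end bud replicate 5 (-0.57, limma adjusted p = 0.0344) and without duct replicate 2 (-0.62, limma adjusted p = 0.00596). Each terminal end bud array had a duct array on a neighbouring slide, and the mean of the 9 members was lower in terminal end buds in 6 of 6 such pairs, by differences from -0.77 to -0.41 with the ratios as deposited.

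The other subunits of the cycle gave a like picture. Of 11 listed, 9 were measured. Of all probes 20.4% fell in terminal end buds and 12.2% in ducts. In terminal end buds 8 fell and none rose, led by Dld at -2.81 (SE 0.18), the lipoamide dehydrogenase shared by the pyruvate and 2-oxoglutarate complexes, Idh3g at -2.78 (SE 0.15), Sucla2 at -2.63 (SE 0.18) and Sdhc at -2.22 (SE 0.16). In ducts 8 fell, with Idh3b at -1.58 (SE 0.11), Sdhb at -1.47 (SE 0.16), Idh3g at -1.44 (SE 0.15) and Dld at -1.35 (SE 0.18). Of the other subunits of the NAD-dependent isocitrate dehydrogenase, Idh3g was lower in terminal end buds than in ducts by -1.34 (limma adjusted p = 0.000493), and stood at -0.41 (limma adjusted p = 0.394) after quantile normalization. Idh3b, also a regulatory subunit, had means of -1.49 in terminal end buds and -1.58 in ducts (difference 0.10, limma adjusted p = 0.729). Whether the subunits differ from each other in this was not tested.

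**Figure D3:**
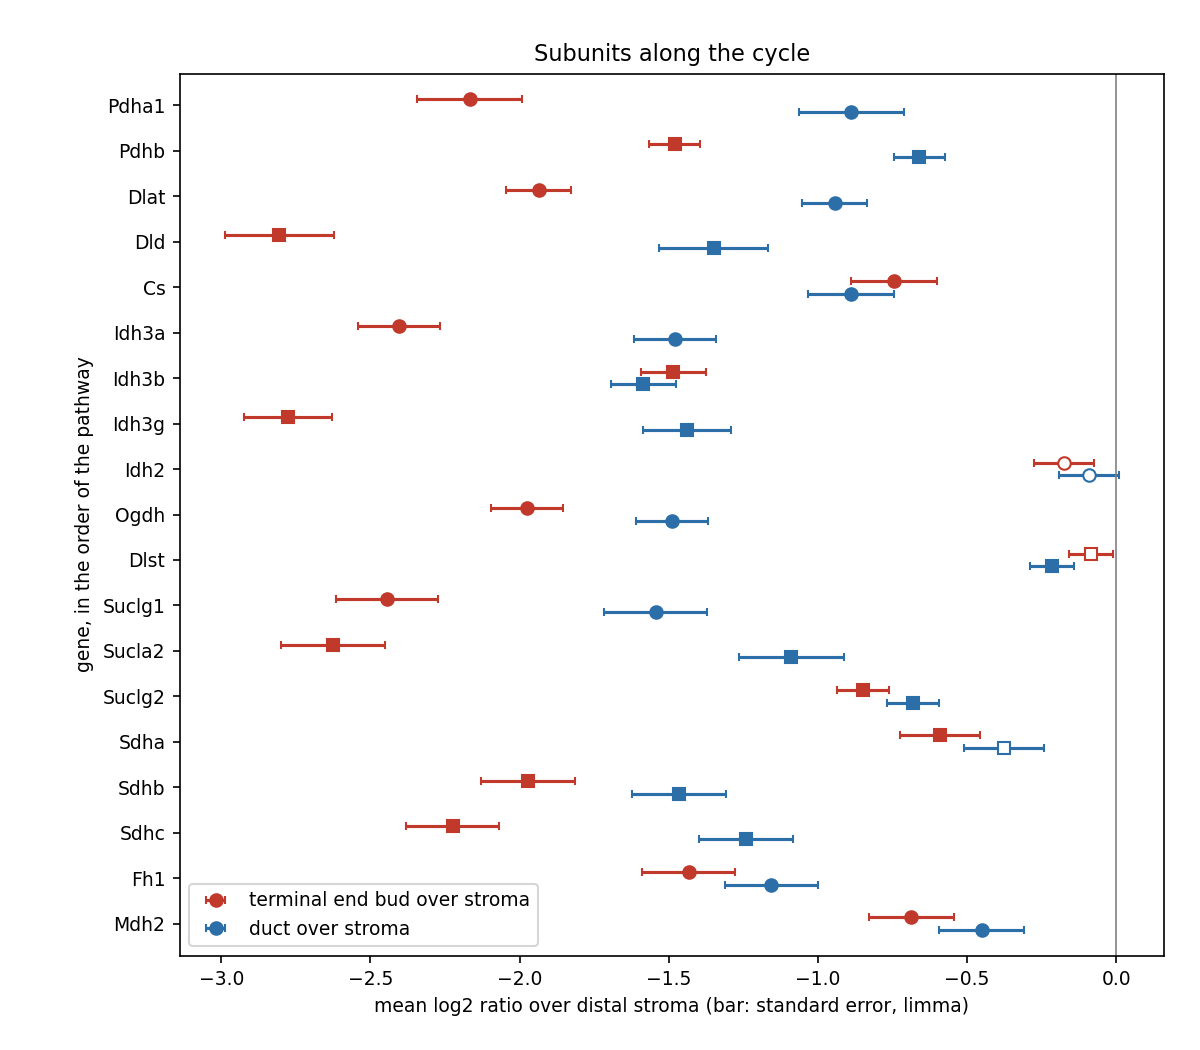
Mean log2 ratio over distal stroma of pyruvate dehydrogenase and citric acid cycle subunits in the order of the pathway, for terminal end buds (red) and ducts (blue), with standard errors from limma. Circles are the 9 genes described here, squares are other subunits, and open symbols have an adjusted p of at least 0.05. Idh2 and the probe taken for Dlst lay closest to 0.

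Several of these other genes had probes that disagreed. Sucla2, a beta subunit of succinyl-CoA ligase, was at -2.63 in terminal end buds by one probe and -0.07 by the other. Sdha, the flavoprotein of succinate dehydrogenase, was at -0.59 by one and -2.88 by the other. Dlst, the succinyltransferase of the 2-oxoglutarate complex, was at -0.08 and -1.48. Their single values are therefore uncertain. With the other probe of all 3 genes the counts were 8 of 9 in each structure and 4 of 9 between them, but of other genes. Sucla2 then passed in neither structure, Dlst fell in terminal end buds and Sdha in ducts, and Sdha was lower in terminal end buds than in ducts by -1.56 (limma adjusted p = 0.000723). With the probes taken, 4 of 9 were lower in terminal end buds, namely Sucla2, Dld, Idh3g and Sdhc, where 10.4% of all probes were. After quantile normalization 0 of these 9 genes were lower and 1 was higher.

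Most measured genes of a list for pyruvate entry and its control also lay below stroma. Of 6 measured genes of the list, 4 fell in each structure, namely Pdk4, Pdhb, Pdk2 and Pdp2. Of all probes 20.4% fell in terminal end buds and 12.2% in ducts. In terminal end buds 1 gene of the list rose, where 23.2% of all probes did. Pdk4, a kinase that inactivates pyruvate dehydrogenase and is high when fat is burned, averaged -2.30 (SE 0.14) in terminal end buds and -1.31 (SE 0.14) in ducts. Pdhb, the beta subunit that pairs with Pdha1, averaged -1.48 and -0.66 (SE 0.09 each). Pdhb was lower in terminal end buds than in ducts by -0.82 (limma adjusted p = 0.000345), and by -0.37 (limma adjusted p = 0.0907) after quantile normalization. Pdk3, another kinase of the complex, was the one gene that rose in terminal end buds, by 0.35 (SE 0.07, limma adjusted p = 0.00125), and it averaged 0.12 in ducts (limma adjusted p = 0.273). Pdk3 was named after its values had been seen.

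Routes into and out of the cycle went both ways. Of 16 measured genes, 3 rose in terminal end buds and 10 fell, and in ducts 3 rose and 5 fell (8 fell after quantile normalization). The share that rose, 3 of 16, is near that of all probes, 23.2% and 16%. The 3 that rose were the same in each. They were Slc25a13, an aspartate-glutamate carrier, at 1.68 in terminal end buds and 1.12 in ducts (SE 0.11 each), Got2, mitochondrial aspartate aminotransferase, at 1.24 and 0.59 (SE 0.07 each), and Slc25a12, the other carrier, at 1.12 and 0.31 (SE 0.06 each). Slc25a12 was named after its values had been seen. Its ratios ran from 0.97 to 1.26 on the terminal end bud arrays, against 0.17 to 0.51 on the duct arrays, and the groups did not overlap, as for 4.42% of all probes with terminal end buds above. Slc25a12 was higher in terminal end buds than in ducts by 0.82 (limma adjusted p = 2.81e-05), also after quantile normalization (0.61, limma adjusted p = 0.000507). These proteins take part in the malate-aspartate shuttle, whose other listed genes did not rise. The oxoglutarate carrier Slc25a11 fell, averaging -0.58 in terminal end buds and -0.56 in ducts (SE 0.10 each). Cytosolic malate dehydrogenase, Mdh1, fell too, averaging -0.82 and -0.38 (SE 0.12 each), and cytosolic aspartate aminotransferase, Got1, did not pass, at 0.19 and -0.06 (SE 0.08 each). Mdh1 and Got1 were named after their values had been seen.

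The genes of this list that lay furthest below ducts in terminal end buds were Me1, Acly and Idh1. Me1, cytosolic malic enzyme, averaged -1.56 in terminal end buds and -0.13 in ducts (SE 0.09 each), and Idh1, cytosolic isocitrate dehydrogenase, -1.40 and -0.31 (SE 0.07 each). Acly, which splits exported citrate, averaged -1.64 and -0.43 (SE 0.17 each). The Acly difference of -1.21 (limma adjusted p = 0.00307) did not pass after quantile normalization (-0.66, limma adjusted p = 0.178). Between the structures 7 of the 16 genes were lower and 3 higher in terminal end buds, where 10.4% and 8.32% of all probes were. The 7 became 4 without terminal end bud replicate 3, 4, 5 or 6 or without duct replicate 4, and 3 after quantile normalization, with Me1 (-1.09, limma adjusted p = 2.4e-05) and Idh1 (-0.73, limma adjusted p = 0.000718) among them. The 3 higher became 1, Slc25a12, after quantile normalization. Pcx, pyruvate carboxylase, which refills the cycle, did not pass against stroma, at -0.33 in terminal end buds (limma adjusted p = 0.0828) and -0.01 in ducts (limma adjusted p = 0.962).

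Of 22 genes of mitochondrial biogenesis and of proteins that mitochondria share, 14 fell and 2 rose in terminal end buds. In ducts 14 fell and 1 rose. Of all probes 20.4% fell and 23.2% rose in terminal end buds, and 12.2% fell and 16% rose in ducts. The share of the list that rose was below that of all probes in each. The risers were the transcription factor genes Nrf1 and Gabpb1 in terminal end buds and Gabpb1 in ducts, named after their values had been seen. The median ratio of the 22 genes was -0.43 in terminal end buds and -0.39 in ducts, against -1.94 and -0.94 for the 9 enzymes. Ppargc1a, a coactivator that drives mitochondrial genes, averaged -1.70 and -1.23 (SE 0.15 each), and its partner Esrra -0.88 and -0.66 (SE 0.13 each). Cytochrome c, Cycs, averaged -1.75 and -0.60 (SE 0.19 each). Between the structures 5 genes of the list were lower in terminal end buds and 2 higher, and after quantile normalization 1 was lower and 3 higher. Of all probes 10.4% were lower and 8.32% higher, and 7.16% were lower after quantile normalization. The 2 of 22 that were higher are thus near the share of all probes, and so is the 1 lower after quantile normalization. The lower genes as deposited were led by Cycs (-1.15, limma adjusted p = 0.00699) and Tfb2m, a mitochondrial transcription factor (-0.88, limma adjusted p = 0.00137). Vdac2, a channel of the outer membrane, averaged -0.01 in terminal end buds and -0.60 in ducts and was higher in terminal end buds by 0.59 (limma adjusted p = 0.0142).

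Most markers of brown fat cells, of adipocytes and of endothelium also lay below stroma in terminal end buds. Ppargc1a stands in the brown adipocyte list too. All 8 measured brown adipocyte markers fell in terminal end buds and 7 fell in ducts, with Ucp1, the uncoupling protein, at -3.54 and -1.82 (SE 0.26 each) and Cpt1b at -3.22 and -2.05 (SE 0.16 each). The mean of the 8 markers ranged from -2.72 to -1.95 over the terminal end bud arrays, against -2.12 to -0.98 over the duct arrays, and that of the 9 enzymes from -1.89 to -1.23, against -1.48 to -0.62. Of 10 measured adipocyte markers 9 fell in terminal end buds and 4 in ducts. All 8 endothelial markers fell in terminal end buds and 5 in ducts. Of all probes 20.4% fell in terminal end buds and 12.2% in ducts. The adipocyte marker not called in terminal end buds was Lipe by the probe taken (0.02). Its other probe averaged -1.54 (limma adjusted p = 7.43e-07) in terminal end buds and -0.59 (limma adjusted p = 0.00687) in ducts. Between the structures, 5 brown adipocyte markers were lower in terminal end buds, 3 without terminal end bud replicate 4 or without duct replicate 1, 3, 4 or 5, and 0 after quantile normalization. Of the other adipocyte markers 7 of 10 were lower, and 1 after quantile normalization. Of the endothelial markers 7 of 8 were lower, 6 after quantile normalization and 2 on slides up to 193 alone. Of all probes 10.4% were lower in terminal end buds than in ducts, and 7.16% after quantile normalization. The mean of the endothelial markers ranged from -1.47 to -0.94 over the terminal end bud arrays, against -0.54 to -0.12 over the duct arrays, without overlap. No skeletal muscle marker of 8 fell in either structure, with list means between -0.04 and 0.40 over the 12 arrays. In terminal end buds 2 of them rose, Actn3 (0.91) and Tnnc2 (0.21), and in ducts 1 rose, Actn3 (0.64). These shares are near those of all probes, of which 23.2% rose in terminal end buds and 16% in ducts. All 9 epithelial markers rose in each structure, with Krt18 at 5.19 and 4.98 (SE 0.17 each). The part of fat cells and endothelium in the ratios of the cycle enzymes was not tested.

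**Figure D4:**
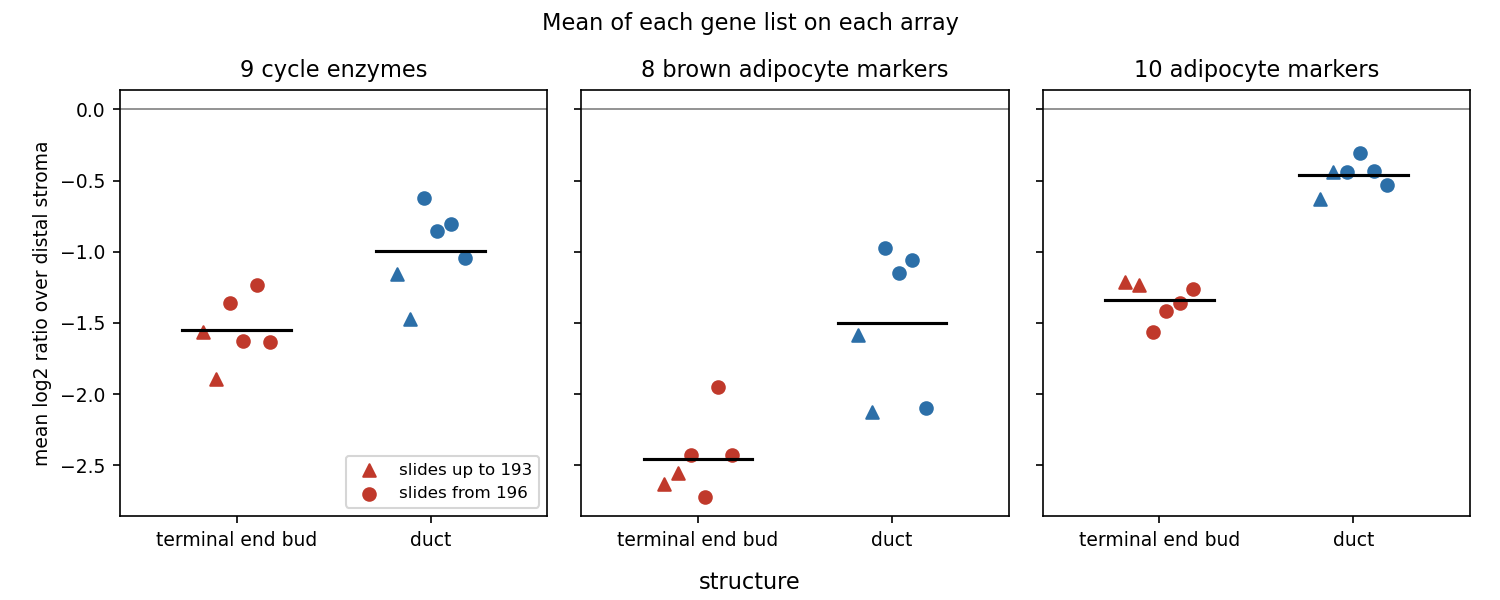
Mean log2 ratio over distal stroma of the 9 cycle enzymes, 8 brown adipocyte markers and 10 adipocyte markers on each terminal end bud array (red) and duct array (blue), with black lines at the group means. Triangles are slides up to 193 and circles slides from 196. The groups of the adipocyte markers did not overlap, and those of the other lists did.

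The genes most like the mean of the 9 enzymes over the 12 arrays were Ndufs4, a subunit of respiratory complex I (Pearson r = 0.97), Jam2, an adhesion molecule of endothelial junctions (r = 0.96), Septin4 (r = 0.96), Zfand6 (r = 0.96) and Snrk (r = 0.96), out of 12825 genes with all values. Ndufs4 averaged -1.53 in terminal end buds and -0.93 in ducts. Part of each r is the difference between the groups. After subtraction of group means Ndufs4 had r = 0.92 and the others 0.90 to 0.91. Ranks this close depend on array noise and are given as a description.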

How the data were processed

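Cy5 labelled the epithelial RNA (terminal end buds on 6 arrays, ducts on 6) and Cy3 the distal stroma RNA, per the labels. The authors deposited normalized log ratios, taken here as log2. No source used here names the scanner, background correction or normalization method. The ratios were used as deposited, with array medians of 0.01 to 0.023. Of the 17589 probes, 14136 name 1 gene, 13 several and 3440 none here. The table lacked 129 values, none of a member. Symbols came from the platform annotation, and 14029 were matched by gene number to RefSeq (GRCm38.p6).

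One limma fit (limma 3.58.1, R 4.3.3) with 1 mean per group tested each mean ratio against 0 and the difference of the means. P-values were two-sided and adjusted by Benjamini-Hochberg over all probes. The fit was tested on simulated data. A gene with several probes was read from the probe with most values, then the first in the table. Alternatives covered centring, scaling, probe filters, the variance model, array weights, slides, single groups, left-out arrays and the mean of probes. From other lists the text names up to 4 called genes with the largest change and some given whatever they showed. The members, lists and tests were chosen with earlier results of these data known. The number of arrays limits the precision.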

Additional observations from a re-analysis of the deposited data

Results flagged for a closer look

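Of 20 sets of 6 arrays (10 probes in each structure), 3 had an array set apart from the rest by a gap above Dixon's critical value, where chance gives about 1 in 20. Cs was at -1.39 on terminal end bud replicate 2, and its nearest neighbour at -0.72. Suclg1 was at -1.62 on terminal end bud replicate 5, against -2.44 for the next array. Fh1 was at -2.15 on duct replicate 2, against -1.17 for the next. The ratio over stroma differed between terminal end buds and ducts for Pdha1 (-1.28), Dlat (-0.99), Idh3a (-0.92) and Suclg1 (-0.90) by the limma fit of the difference.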

How the results depend on the processing

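Against stroma, 8 or 9 of 9 members fell in terminal end buds and 7 to 9 in ducts under every alternative tried. In ducts it was 7 without duct replicate 1, 4, 5 or 6 and on slides up to 193 alone. It was 9 in each structure with the mean of a gene's probes. The difference of the structures depended on scaling. The 4 lower members became 0 under quantile normalization and 2 at a common median absolute deviation, and the mean difference of the 9 genes, -0.56 as deposited, became 0.028 under quantile normalization. Slides up to 193 alone, chosen after seeing the data and with 2 arrays a group, gave 2 lower members, and over all probes 380 higher and 643 lower between the structures, 2367 and 2296 in terminal end buds against stroma, and 1091 and 1089 in ducts. As deposited these counts were 1463 and 1832, 4086 and 3588, and 2814 and 2138. With arrays left out in turn, Pdha1 stayed between -1.41 and -1.14, Dlat between -1.09 and -0.90, Idh3a between -1.07 and -0.83 and Suclg1 between -1.07 and -0.77, each called. Between the structures the sign changed under quantile normalization for Ogdh (0.37), Fh1 (0.33), Mdh2 (0.052), Cox8b (0.15) and Cpt1b (0.043). It also changed for Cs without duct replicate 2 (-0.011 to 0.274 over the arrays left out) and for Idh2 without duct replicate 3 (-0.134 to 0.032), for Idh2 with the mean of its probes (0.036), on slides up to 193 alone for Idh2 (0.16), Fh1 (0.11) and Aco1 (0.13), and on slides from 196 alone for Mdh2 (0.041). Slc25a10 against stroma in terminal end buds was at 0.13 on slides up to 193 alone. The cause was not tested. The labels give no replicate numbers to pair the arrays. With neighbouring slides as a block, 4 members were lower in terminal end buds than in ducts.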
